A study of Mus musculus with 24 samples.

Results

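Expression of 10 granin and neuropeptide genes was compared between mouse adrenal glands and transgenic neuroblastoma tumors. The members were the rows of the deposited RNA-seq table named Chga, Chgb, Scg2, Scg3, Scg5, Vgf, Npy, Cartpt, Gal and Resp18, chosen by gene symbol, and all 10 were found among 21833 protein-coding genes. All 10 also passed the filter for testing, as did 10171 genes in all. AG were adrenal glands of CRE - mice (n = 3). AGM were tumor-free adrenal glands of MYCN +/-, CRE + mice (n = 5). TI were tumors of IGF2BP1, CRE + mice (n = 8), of which 1 was labeled IGF2BP1 +/- and 7 were labeled IGF2BP1 +/+. TIM were tumors of mice labeled IMP1/MYCN, CRE + (n = 8), IMP1 being another name of IGF2BP1. Both transgenes sat in the Rosa26 locus behind a stop cassette and were switched on by an iCRE driven by Dbh, the dopamine β-hydroxylase gene, so that Cre-positive mice expressed them in sympatho-adrenal cells and AG mice did not. The age of the animals was not given in the labels. By the study, AGM mice were culled later than the median survival of IGF2BP1 +/+ and of IGF2BP1/MYCN mice, which was shorter in the latter. Age therefore differed between AGM, TI and TIM and cannot be told apart from these groups. The source labels named an adrenal gland for 1 TI tumor and 2 TIM tumors and the spine for 1 TIM tumor, and gave no site for the other tumors. By the study, 7 of 8 IGF2BP1 tumors lay in the lower abdomen, so most TI tumors were not adrenal.

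Granins are acidic proteins that are packed at high concentration into dense-core vesicles of neuroendocrine cells and released together with hormones and catecholamines. Several of them are also precursors that prohormone convertases cut into bioactive peptides. In the adrenal gland they are made by the chromaffin cells of the medulla, which share their neural crest origin with sympathetic neurons and with neuroblastoma, and chromogranin A is a long-used marker of tumors of this lineage. Neuropeptide Y, galanin and CART are small peptides stored in the same vesicles.

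On the build GRCm39, which is also the build of the files, the granin genes are Chga at chr12:102520484-102531300, Chgb at chr2:132622464-132637904 Scg2 at chr1:79412386-79417837, Scg3 at chr9:75546929-75591396, Scg5 at chr2:113606688-113660094 and Vgf at chr5:137055246-137062205. Resp18 lies at chr1:75248842-75255253, Npy at chr6:49799026-49806489, Cartpt at chr13:100034990-100047006 and Gal at chr19:3459912-3464881. Promoters of 9 of the 10 members were matched in RefSeq sequences of the build GRCm38.p6, as 300-base windows of 250 bases before to 50 bases after the start of the gene. Vgf had no entry. The palindrome TGACGTCA, the cyclic AMP response element known from secretory and neuropeptide genes, was present in the windows of Chgb, Scg2 and Cartpt, and its variant TGACGTAA in that of Chga, with both strands searched. At least 1 of these forms was present in 4 of 9 member windows and in 2.28% of all 32851 windows (588 windows, or 1.79%, held the palindrome and 164, or 0.499%, the variant). The first base of the element lay 72 bases before the start in Chgb, 68 in Scg2, 112 in Cartpt and 44 in Chga. Npy had neither form in this window. CACGTG, the E-box bound by MYC proteins, was present in 0 of 9 member windows and in 7.15% of all windows. A match describes these letters and does not show binding. The 150 bases before the start of the genes that carry the element, and of Npy as the most abundant member in TIM, are shown 5′ to 3′ on the strand of the gene, with the element in capitals, for chr12:102554791-102554940 (plus strand), chr2:132781492-132781641 (plus), chr1:79440027-79440176 (minus), chr13:99900684-99900833 (minus) and chr6:49822560-49822709 (plus) of GRCm38.p6.
Chga: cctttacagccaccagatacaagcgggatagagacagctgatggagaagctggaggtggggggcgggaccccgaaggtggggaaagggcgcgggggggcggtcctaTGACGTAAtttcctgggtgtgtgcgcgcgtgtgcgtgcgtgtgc
Chgb: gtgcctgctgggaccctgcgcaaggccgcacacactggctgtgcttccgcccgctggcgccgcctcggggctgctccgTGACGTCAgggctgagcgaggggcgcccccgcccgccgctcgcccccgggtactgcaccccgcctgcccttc
Scg2: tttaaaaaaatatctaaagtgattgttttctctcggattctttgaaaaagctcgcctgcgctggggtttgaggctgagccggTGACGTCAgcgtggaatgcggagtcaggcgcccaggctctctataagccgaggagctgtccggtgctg
Cartpt: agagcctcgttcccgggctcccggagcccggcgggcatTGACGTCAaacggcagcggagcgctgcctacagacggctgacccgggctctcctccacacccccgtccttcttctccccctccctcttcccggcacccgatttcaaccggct
Npy: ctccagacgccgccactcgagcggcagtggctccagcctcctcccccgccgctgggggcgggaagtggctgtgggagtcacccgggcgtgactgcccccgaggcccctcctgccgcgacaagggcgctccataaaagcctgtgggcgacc

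Levels are given as FPKM, the fragments of a gene scaled by its length and by the size of the library as normalized by the authors. The counts had first been adjusted for the sequencing run, which can change the level of each gene. Comparisons of levels between genes carry this limit. The counts behind them were recovered from the table and came to 1.25e+07 to 2.14e+07 per library in AG and TI, whereas AGM libraries held 1.17e+08 to 1.17e+09 and TIM libraries 5.85e+07 to 8.89e+08. A set of 126 genes exceeded 1000 FPKM in some library, and without them every library held 1.23e+07 to 2.37e+07 counts. Chga and Npy were among the 126. Mycn ranged from 0.559 to 0.823 FPKM in AG and from 0.559 to 1.19 FPKM in AGM. It ranged from 1.57 to 15.6 FPKM in TI (median 7.67) and from 1.2 to 4.38 FPKM in TIM (median 2.97). TI thus had the highest median Mycn, without a MYCN transgene. Igf2bp1 stayed at or below 0.0796 FPKM in all 24 libraries. These rows gave no check of the transgenes. According to the labels AG was sequenced in run 1 only, AGM in run 2 only and TIM in runs 2 and 3, so AGM vs AG and TIM vs AG each set groups of different runs against each other and these cannot be told apart. Of the TI samples 6 were of run 1, 1 of run 2 and 1 of run 3, while 3 TIM samples were of run 2, 5 of run 3 and 0 of run 1, so TIM vs TI is in large part also a comparison of runs. Libraries of TI and TIM could not be assigned to runs. Libraries are named by group and a letter that carries no other meaning. The sample labels do not say which came from separate animals, so p-values measure the spread between these samples.

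Chromogranin A, chromogranin B and secretogranin II, the abundant matrix proteins of chromaffin vesicles, were highest in AGM and did not differ between tumors and AG by the test. Chga was at 53.9, 71.4 and 78.4 FPKM in AG and at 641, 820.4, 853, 963 and 1270.0 FPKM in AGM. In TI it ranged from 12.6 to 926 FPKM with a median of 62.9, and in TIM from 28.5 to 1266 with a median of 184. AG and AGM did not overlap, whereas 4 TI tumors lay above and 4 below all AG libraries, and 6 TIM tumors lay above and 1 below them. Chga was higher in AGM than in AG (log2FC 3.71 ± 1.16 SE on the log2(FPKM + 1) scale, limma FDR = 0.0203), a call lost whenever 1 of the 3 AG libraries was left out. The difference between TI and AG was 0.03 ± 1.08 (limma FDR = 1) and changed sign in 5 of 11 fits that left out a library.

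Chgb followed the same order of glands. It was at 51, 68.2 and 73.3 FPKM in AG and at 202, 352, 373, 383 and 459 FPKM in AGM, again without overlap. The difference did not pass the test in the fit over all 24 libraries (log2FC 2.41 ± 1.12, limma FDR = 0.111). It passed when only AG and AGM set the spread (limma FDR = 0.000246). In TI, Chgb ranged from 5.29 to 187 FPKM (median 25.7), with 7 of 8 tumors below every AG library. In TIM it ranged from 9.7 to 805 FPKM (median 68.1), with 4 tumors above and 4 below AG. Neither tumor group differed from AG by limma (FDR = 0.321 for TI and 0.971 for TIM).

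Scg2, the precursor of secretoneurin, was at 23.7, 29.9 and 31.7 FPKM in AG and at 124, 159.5, 160.0, 165 and 265 FPKM in AGM. In TI it ranged from 1.62 to 89.1 FPKM (median 10.1) and in TIM from 9.86 to 121 FPKM (median 27). Every tumor of both groups lay below every AGM library. Scg2 was higher in AGM than in AG (log2FC 2.54 ± 0.84, limma FDR = 0.0274), a call lost without any AG library or AGM c. Compared with AGM, it was lower in TI (log2FC -3.83 ± 0.66, limma FDR = 2.2e-05) and lower in TIM (log2FC -2.57 ± 0.66, limma FDR = 0.00182).

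Secretogranin III, which binds chromogranin A in the forming vesicle, and secretogranin V (7B2), the chaperone of the prohormone convertase PC2, showed another pattern: both were higher in every tumor than in every AG library. Scg3 was at 1.32, 1.77 and 1.78 FPKM in AG, at 2.06, 2.87, 2.99, 3.49 and 4.54 FPKM in AGM, from 6.29 to 15.5 FPKM (median 9.68) in TI and from 9.5 to 14.8 FPKM (median 13.8) in TIM. It had the narrowest spread among the tumors of all members, and the tumors overlapped neither AG nor AGM. The log2FC against AG was 2.02 ± 0.20 in TI and 2.40 ± 0.20 in TIM (limma FDR = 1.46e-08 and 7.94e-10). In AGM it was 0.65 ± 0.22 (limma FDR = 0.0266), which was lost without any AG library, AGM c or AGM d. Against AGM it was 1.36 ± 0.17 in TI and 1.74 ± 0.17 in TIM (limma FDR = 2.42e-07 and 6.34e-09).

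Scg5 was at 1.92, 2.24 and 2.47 FPKM in AG, but at 12.3, 12.5, 14.6, 17.8 and 24.1 FPKM in AGM, from 12.1 to 34.4 FPKM (median 18.1) in TI and from 5.98 to 72.2 FPKM (median 26.1) in TIM. AGM overlapped both tumor groups, and all 3 of these groups lay above AG. The log2FC against AG was 2.66 ± 0.50 in TI, 2.86 ± 0.50 in TIM and 2.39 ± 0.53 in AGM (limma FDR = 9.86e-05, 4.25e-05 and 0.00184). TI and TIM did not differ from AGM in Scg5 by limma (FDR = 0.575 and 0.322).

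Vgf encodes a secreted precursor induced by neurotrophins, and Resp18 a regulated endocrine-specific protein of the secretory pathway. Both were low in AG, and they were the members called by limma between the tumor models. Vgf was at 0.0863, 0.125 and 0.254 FPKM in AG (27 to 80 recovered counts), at 6.02, 6.11, 7.44, 8.19 and 13.4 FPKM in AGM, from 0.983 to 7.61 FPKM (median 1.86) in TI and from 3.18 to 469 FPKM (median 96.7) in TIM. In TIM, 7 of 8 tumors lay above every TI tumor and 6 of 8 above every AGM library. Vgf was higher in TIM than in TI (log2FC 3.93 ± 0.73, limma FDR = 0.000782), and this call remained in all 16 fits that left out a tumor. It was also higher in TIM than in AG (5.58 ± 0.99, limma FDR = 5.86e-05) and than in AGM (2.64 ± 0.84, limma FDR = 0.00864). All 8 TI tumors lay above AG as well, but the difference on the log2(FPKM + 1) scale did not pass (1.65 ± 0.99, limma FDR = 0.17). It passed with a pseudocount of 0.1 FPKM and with the spread taken from these groups alone. AGM was above AG (2.95 ± 1.07, limma FDR = 0.0423), a call lost without any single gland library.

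Resp18 was at 1.49, 1.88 and 1.96 FPKM in AG and at 76, 84.8, 89.1, 98.3 and 144 FPKM in AGM. In TI it ranged from 2.01 to 48.2 FPKM (median 7.82) and in TIM from 1.15 to 597 FPKM (median 61.5). Within TIM the range thus spanned AG, TI and AGM, and only TIM f fell below all AG libraries. Resp18 was higher in TIM than in TI (log2FC 2.32 ± 0.81, limma FDR = 0.0432), but the FDR ranged from 0.00313 to 0.0935 when tumors were left out and was above 0.05 in 10 of 16 such fits. It was higher in AGM than in AG (5.13 ± 1.19, limma FDR = 0.00252) and in TIM than in AG (4.16 ± 1.102, limma FDR = 0.00308). The call in TIM vs AG was lost with limma-voom on the recovered counts (FDR = 0.0594).

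**Figure D1:**
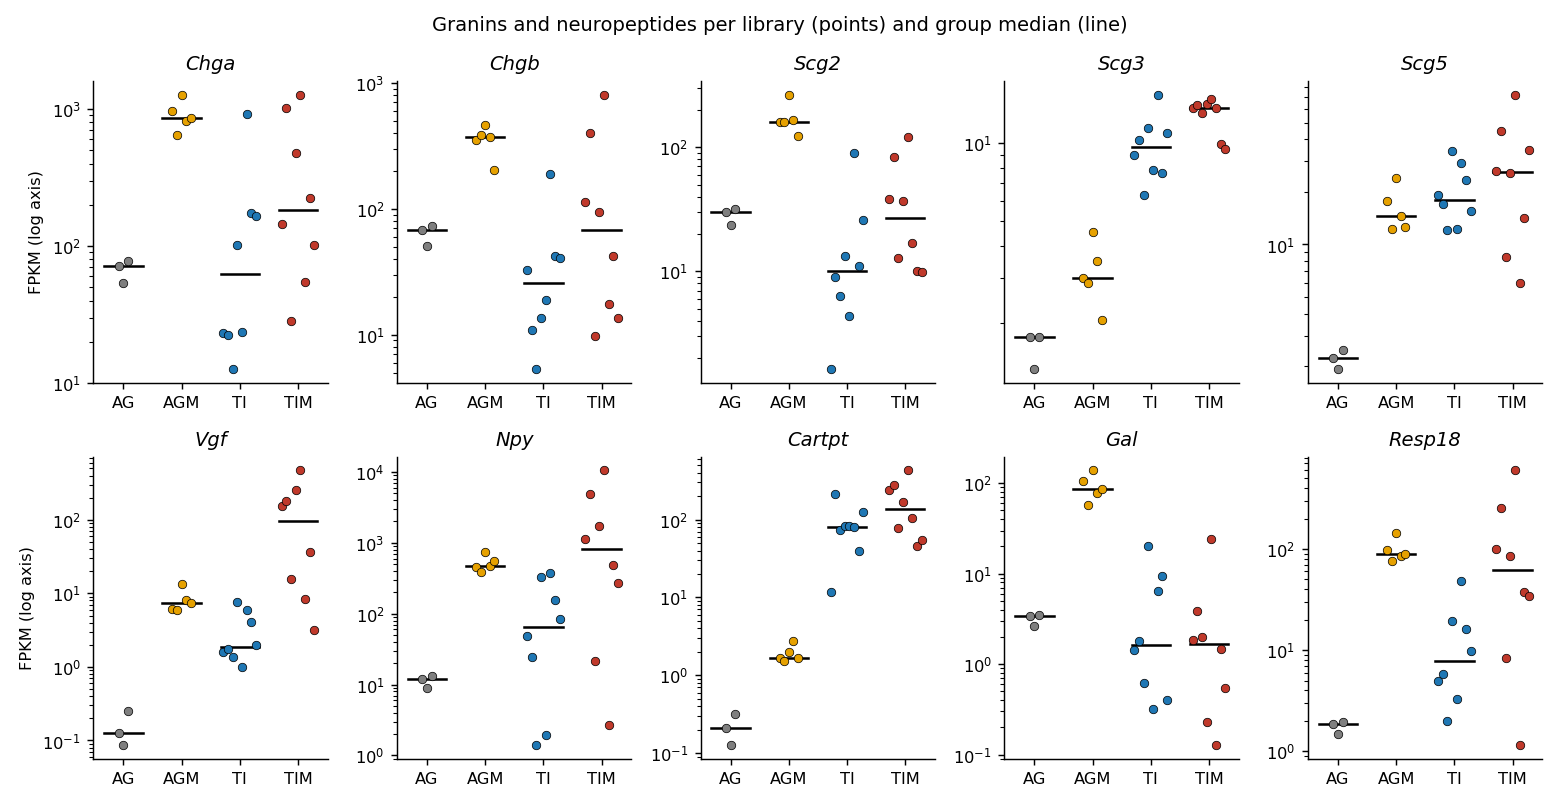
FPKM of the 10 granin and neuropeptide genes (log axes) in 3 AG, 5 AGM, 8 TI and 8 TIM libraries, with 1 point per library and a line at the group median. Gal is highest in AGM, where it lies between 57.4 and 138 FPKM, Cartpt separates the tumors (11.7 to 427 FPKM) from the glands, and Npy and Resp18 spread most widely among TIM tumors.

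Among the peptides, neuropeptide Y, the sympathetic cotransmitter of noradrenaline, reached the highest level of all members. Npy was at 9.06, 11.9 and 13.1 FPKM in AG and at 382, 457, 472, 562 and 733 FPKM in AGM. In TI it ranged from 1.39 to 376 FPKM (median 65.6) and in TIM from 2.65 to 10490.2 FPKM (median 808). The highest library held 270 times the lowest in TI and 3960 times the lowest in TIM, but 1.44 and 1.92 times in AG and AGM. Single tumors of both groups lay below AG (2 of 8 TI and 1 of 8 TIM). Npy was higher in TIM than in AG (log2FC 5.12 ± 1.81, limma FDR = 0.0217) and in AGM than in AG (5.38 ± 1.95, limma FDR = 0.0423). The first call was lost without any AG library and with the spread of these groups alone, and the second without any of the 8 gland libraries. The difference between TIM and TI was 3.28 ± 1.34 (limma FDR = 0.0793), with 5 TIM tumors above every TI tumor.

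Cartpt, the precursor of the CART peptides, had the largest rise of the members on the log2(FPKM + 1) scale in each of the 4 comparisons of tumors with glands. By the ratio of mean FPKM, Vgf rose more than Cartpt in TIM vs AG (909 against 798). Cartpt was at 0.126, 0.212 and 0.317 FPKM in AG (17 to 43 recovered counts) and at 1.53, 1.68, 1.68, 2 and 2.72 FPKM in AGM. In TI it ranged from 11.7 to 211 FPKM (median 80.2) and in TIM from 46 to 427 FPKM (median 137). Every tumor lay above every gland library. The log2FC against AG was 5.84 ± 0.64 in TI and 6.78 ± 0.64 in TIM, and against AGM 4.59 ± 0.54 in TI and 5.53 ± 0.54 in TIM, with limma FDR between 6.1e-09 and 1.07e-07 in these 4 comparisons. TIM and TI did not differ by the test (0.95 ± 0.47, limma FDR = 0.148). The difference between AGM and AG was 1.25 ± 0.69 (limma FDR = 0.182) although the 5 AGM libraries lay above the 3 AG libraries. It passed with a pseudocount of 0.1 FPKM and when only AG and AGM set the spread.

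Galanin, a peptide of chromaffin cells and sympathetic neurons, stood apart in AGM. Gal was at 2.62, 3.41 and 3.5 FPKM in AG and at 57.4, 77.4, 87.2, 106 and 138 FPKM in AGM, whereas it ranged from 0.317 to 20.001 FPKM (median 1.62) in TI and from 0.127 to 24.0 FPKM (median 1.67) in TIM. No tumor reached the lowest AGM library. Gal was higher in AGM than in AG (log2FC 4.44 ± 0.86, limma FDR = 0.000465) and lower in TI (-4.62 ± 0.67, limma FDR = 2.44e-06) and TIM (-4.94 ± 0.67, limma FDR = 1.25e-06) than in AGM. Tumors and AG overlapped and did not differ by the test (limma FDR = 0.91 for TI and 0.628 for TIM), with 5 of 8 TI and 6 of 8 TIM tumors below every AG library.

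Counted over the members, TI vs AG gave 3 higher (Scg3, Scg5 and Cartpt) and 0 lower. By limma 24.6% of all 10171 tested genes were called higher and 27.7% lower, so the count of higher members was near that share. Libraries of TI lay above all AG libraries for 5 members, the 3 called and Vgf and Resp18, against 23.8% of all genes, and below them for 0, against 27.3%. In TIM vs AG, 6 members were higher (Scg3, Scg5, Vgf, Npy, Cartpt and Resp18) and 0 lower, against 22.5% and 28.5% of all genes. TIM lay above AG without overlap for 4 members (Scg3, Scg5, Vgf and Cartpt), against 17.8% of all genes, and below it for 0, against 24.7%. The median log2FC of the members was 1.75 in TI and 2.63 in TIM, with -0.00 for all tested genes in each. Both comparisons share the AG libraries and are not independent. In bulk tissue, fewer cells of a type and less RNA per cell cannot be told apart. Markers of other cell types moved with these comparisons: 9 of 10 adrenal cortex markers were lower in either tumor group, their summed level being 707 to 731 FPKM in AG, 1.11 to 16.7 in TI and 1.79 to 13.1 in TIM, while sympathetic neuron markers were higher (7 of 7 in TI and 6 of 7 in TIM, summed 1.89 to 2.26 FPKM in AG, 94.1 to 565 in TI and 145 to 444 in TIM). Their part in the member differences was not tested.

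In AGM vs AG, 8 members were higher (all but Chgb and Cartpt) and 0 lower. Of all genes, limma called 14.6% higher and 14% lower. Chgb and Cartpt passed as well when only AG and AGM set the spread. The 5 AGM libraries lay above the 3 AG libraries for all 10 members and below for 0, against 29.4% and 32.5% of all genes. The median log2FC was 2.74 for the members and -0.00 for all tested genes. Of 10 sympatho-adrenal markers 4 were called higher (Th, Dbh, Hand2 and Pnmt) and 0 lower, with a summed level of 38.5 to 54.6 FPKM in AG and 451 to 823 FPKM in AGM. Slc6a2, the noradrenaline transporter, averaged 1.3 FPKM in AG and 0.199 FPKM in AGM without overlap and was not called. Of the 10 cortex markers 8 were called higher, with a summed level of 4370 to 5468 FPKM in AGM. The largest of the former was Pnmt, which makes adrenaline, at 1.07 to 2.01 FPKM in AG and 191.9 to 391.9 FPKM in AGM. Adipocyte markers (3 of 4) and liver markers (2 of 3) were also called higher in AGM. The summed pancreatic acinar markers were listed at 2.16 to 2.50 FPKM in AG, at 28352 to 428309 FPKM in AGM and at up to 3586340 FPKM in TIM. Islet cells also make granins, and of their 6 measured markers (Ins1, Ins2, Gcg, Ppy, Iapp and Pdx1) all were at 0 in AG, AGM and TI, and their sum reached 1.12 FPKM in TIM. Somatostatin (Sst), which is not among these 6, was at 0 in AG but reached 21.2 FPKM in AGM a, 180 in TI d and 3620 in TIM e. The part of islet cells in the member levels was not tested. The number of members called in AGM vs AG depended on single libraries: it was 3 without any AG library, 4 without AGM c and 5 without AGM d, the 3 being Scg5, Gal and Resp18.

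**Figure D2:**
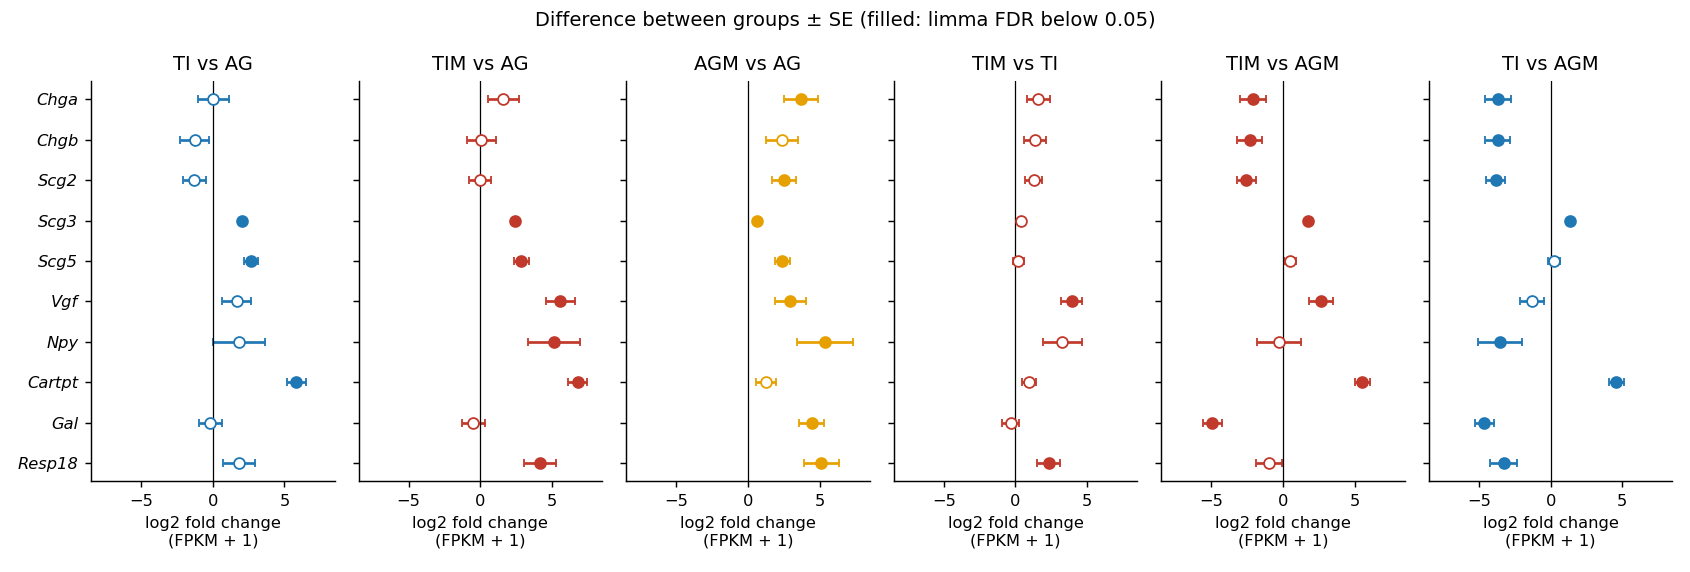
Log2 fold change of FPKM + 1 for each member (points) with its SE (bars) in 6 comparisons, filled where the limma FDR was below 0.05. The 8 filled points of AGM vs AG all lie right of 0, whereas in TI vs AGM 6 members lie left and Scg3 and Cartpt right of it.

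In TIM vs TI, 2 members were higher (Vgf and Resp18) and 0 lower, where 10% of all genes were called higher and 12.9% lower. The part of the run in these calls was not tested. For no member did the tumor groups separate without overlap, which 0.767% of all genes did upward and 0.787% downward. Left without TI f, the tumor with the highest Chga, the count was 6, as Chga, Scg2, Scg3 and Npy then passed as well. Without TI a, b, c, e, g or h or TIM a, b, d or e it was 1, Vgf.

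Compared with AGM, the tumors held less of the chromaffin granins and galanin and more Scg3 and Cartpt. TIM vs AGM gave 3 higher (Scg3, Vgf and Cartpt) and 4 lower (Chga, Chgb, Scg2 and Gal), against 31.9% higher and 33.4% lower of all genes. These counts in TIM were near the shares of all genes. TI vs AGM gave 2 higher (Scg3 and Cartpt) and 6 lower (Chga, Chgb, Scg2, Npy, Gal and Resp18), against 36.2% in each direction. Without overlap, TIM lay above AGM for 2 members (Scg3 and Cartpt; 14.5% of all genes) and below for 2 (Scg2 and Gal; 20.8%), and TI above for the same 2 (25.4%) and below for 5 (Chgb, Scg2, Npy, Gal and Resp18; 26.8%). The calls of Chga in TIM (log2FC -2.10 ± 0.91, limma FDR = 0.0469) and of Npy in TI (-3.53 ± 1.52, limma FDR = 0.042) were lost in 10 and 9 of 13 fits that left out a library, among them each fit without an AGM library. Chgb was lower in both, by a log2FC of -2.34 ± 0.87 in TIM and -3.69 ± 0.87 in TI (limma FDR = 0.0229 and 0.000686). AGM shares run 2 with 3 TIM samples and 1 TI sample. Age also differed between AGM and the tumor groups, and its part was not tested.

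Whether the difference between tumor and gland was the same in the groups with and without the MYCN transgene was tested as (TIM - AGM) - (TI - AG). Most TI samples were IGF2BP1 +/+, whereas TIM carried IGF2BP1 and MYCN at the same locus, so the dose of IGF2BP1 and MYCN cannot be told apart in it. It was called for Scg5 and Gal, both lower, where limma called 3.85% of all genes higher and 6.15% lower. For Scg5 the tumor stood 2.66 above the gland without the MYCN transgene and 0.48 above it with the transgene, a difference of -2.18 ± 0.65 (limma FDR = 0.0316). This was lost without any AG library, AGM a or AGM c. For Gal the values were -0.18 without and -4.94 with the MYCN transgene, a difference of -4.77 ± 1.04 (limma FDR = 0.00313), which passed in all 24 fits without a library. For both genes AGM lay above AG. AG and AGM came from different runs, and AGM, TI and TIM mice differed in age, so run, age and genotype cannot be told apart here.

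The shares of the members in their summed FPKM differed between groups. Shares set genes against each other after the adjustment for the run, and AG, AGM and TIM differ in run. The part of run and adjustment in the shares was not tested. The summed FPKM of the 10 genes was 145, 191 and 207 in AG, between 1722 and 3054 in AGM, between 121 and 1763 in TI (median 396) and between 198 and 14286 in TIM (median 1437). In AG, Chga, Chgb and Scg2 made up 37.5% ± 0.421, 35.4% ± 0.281 and 15.8% ± 0.509 of that sum (SD, n = 3). In AGM the share of Chgb was 16.5% ± 4.37 and that of Scg2 7.98% ± 1.12, while Npy made up 23.9% ± 3.02 instead of 6.26% ± 0.0535 (SD, n = 5 and 3). Each share was compared by an exact two-sided permutation test over every split of the libraries, adjusted over 60 tests, and these 3 differences gave p = 0.0179, the smallest that 56 splits allow. In all, 8 shares were called in AGM vs AG, those of Vgf, Npy, Gal and Resp18 higher and those of Chgb, Scg2, Scg3 and Scg5 lower. The share of Chga was 41.6% ± 2.91 in AGM and was not called (exact p = 0.0893).

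In the tumors Chgb and Scg2 took less of the mix than in either gland group by their means. Chgb made up 8.92% ± 6.10 in TI and 5.03% ± 1.61 in TIM, and Scg2 3.35% ± 1.65 and 2.78% ± 2.64 (SD, n = 8 each), all lower than in AG at the smallest p the exact permutation test over 165 splits allows (p = 0.00606). Shares of Chga (16.2% ± 6.37) and Gal (0.206% ± 0.327) were also lower in TIM than in AG. Vgf took 0.0826% ± 0.0348 in AG, 0.769% ± 0.333 in TI and 4.88% ± 2.99 in TIM, and its share was higher in TIM than in TI (exact permutation p = 0.000932, adjusted p = 0.00932). Scg5 went the other way, with 6.39% ± 3.57 in TI and 2.3% ± 2.12 in TIM (exact permutation p = 0.0127, adjusted p = 0.0364), a call lost without TIM a, TIM b, TIM d or TIM e (adjusted p from 0.0514 to 0.0537) and with Npy left out of the sum (adjusted p = 0.106). With any AG library left out, 0 shares were called against AG in TI, TIM or AGM, and without any AGM library 0 in AGM vs AG, where fewer splits allow no smaller p than 0.0222 (8 against 2), 0.0476 (5 against 2) and 0.0286 (4 against 3). Against AGM, the share of Vgf was called higher in both tumor groups (exact permutation test, adjusted p = 0.0497 in TI and 0.0227 in TIM). Those of Scg2 and Gal were lower in both. The level of Vgf itself was not higher in TI than in AGM (log2FC -1.29 ± 0.84, limma FDR = 0.169). Of 8 TI tumors, 7 lay below every AGM library in Vgf.

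No single member dominated every tumor. Npy made up 1.15% to 51.7% of the sum in TI and 1.17% to 73.4% in TIM, and Cartpt 4.48% to 67.1% in TI and 2.99% to 46.3% in TIM. Chga was the largest member in all 3 AG and all 5 AGM libraries. In TI it was Cartpt in 3 tumors, Chga in 3 and Npy in 2, and in TIM it was Npy in 6 tumors and Cartpt in 2. The shares of Npy and Cartpt did not pass the test between TI and TIM.

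**Figure D3:**
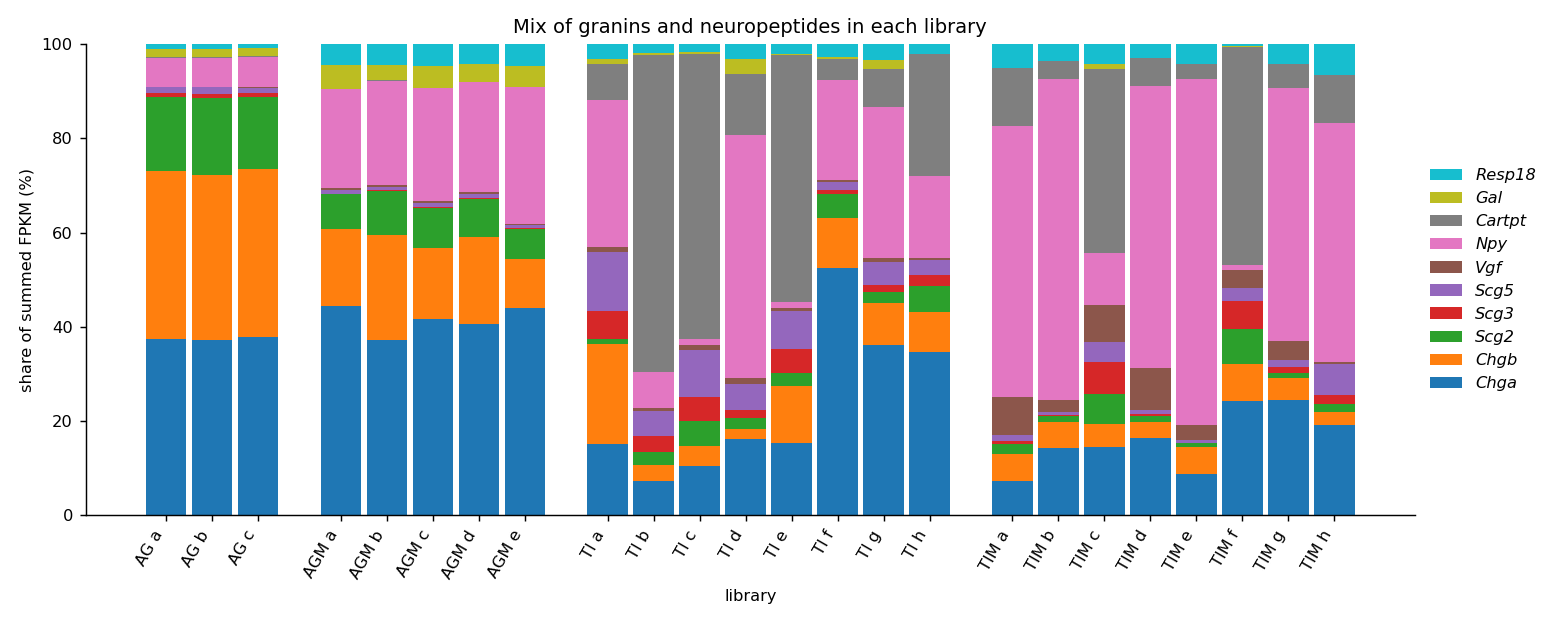
Share of each of the 10 genes in their summed FPKM (percent, stacked bars) for each of the 24 libraries. AG libraries hold 35.1% to 35.7% Chgb and up to 0.153% Cartpt, whereas tumors are filled to varying parts by Npy, Cartpt and Chga.

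High and low levels of several members fell on the same tumors. TIM e held the highest level of all 10 members among TIM tumors, and TI f of 6 members among TI tumors (Chga, Chgb, Scg2, Scg3, Npy and Resp18). Markers of other cells stood apart in the same 2 tumors: the summed adrenal cortex markers were highest in TI f (16.7 FPKM, next highest TI tumor 4.91) and in TIM e (13.1 FPKM, next highest TIM tumor 5.12). TIM e also held the highest summed Schwann and sustentacular markers (44.3 FPKM, next 23.04) and adipocyte markers (32.2 FPKM, next 9.22). TI f ranked 4 among TI tumors in both of these lists and 8 in stroma and capsule markers. The summed sympatho-adrenal markers were also highest in TI f (710 FPKM) and in TIM e (2678 FPKM). In sympathetic neuron markers TI f was the lowest TI tumor (94.1 FPKM) and TIM e ranked 5 among TIM tumors. The part of these cells in the member levels was not tested. The lowest level of 6 members in TI was that of TI c. Among the glands, AG c was highest and AG b lowest in all 10, and AGM c was highest in 9. Pearson's r of log2(FPKM + 1) with Chga over the 8 TI tumors ranged from 0.09 (Cartpt) to 0.95 (Resp18), and over the 8 TIM tumors from 0.33 (Scg3) to 0.93 (Chgb). Of 9 relations in each group, 6 passed an exact permutation test after adjustment over 18, those of Chgb, Scg2, Vgf, Npy and Resp18 in both groups, of Scg3 in TI and of Scg5 in TIM. By rank (rho), Scg2 in both groups, Scg3 and Vgf in TI and Scg5 in TIM did not pass (adjusted p from 0.0827 to 0.236). Without adjustment, 6 of 9 members had a positive r with p below 0.05 in each group, against 8.92% of 10170 tested genes in TI and 16.4% in TIM.

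Resp18 and Npy tracked Chga in both models. For Resp18, r was 0.95 in TI and 0.88 in TIM (rho 0.83 and 0.90, exact permutation p = 0.00104 and 0.00389, adjusted p = 0.0129 and 0.014, with 0.0154 and 0.00456 for rho), and 0.85 and 0.83 without the 2 tumors farthest from the median of Chga. For Npy, r was 0.82 in TI and 0.90 in TIM (rho 0.86 and 0.95, exact permutation p = 0.0123 and 0.00216, adjusted p = 0.029 and 0.0129, with p = 0.0107 and 0.00114 for rho), and 0.72 and 0.85 without those tumors. For Chgb, r was 0.86 in TI and 0.93 in TIM (rho 0.90 in each, exact permutation p = 0.0059 and 0.00181, with 0.00456 for rho in each), but r was 0.52 in TI and 0.86 in TIM without them. The relation of Scg3 in TI (r 0.74, rho 0.52, exact permutation p = 0.0328 and 0.197) rested on these tumors, as r was 0.18 without them. Cartpt did not follow Chga in TI (r 0.09, rho -0.07, exact permutation p = 0.833 and 0.882) and had r 0.68 and rho 0.64 in TIM (exact permutation p = 0.0697 and 0.0962). All members share library and scaling, which these values do not separate from the tumors.

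**Figure D4:**
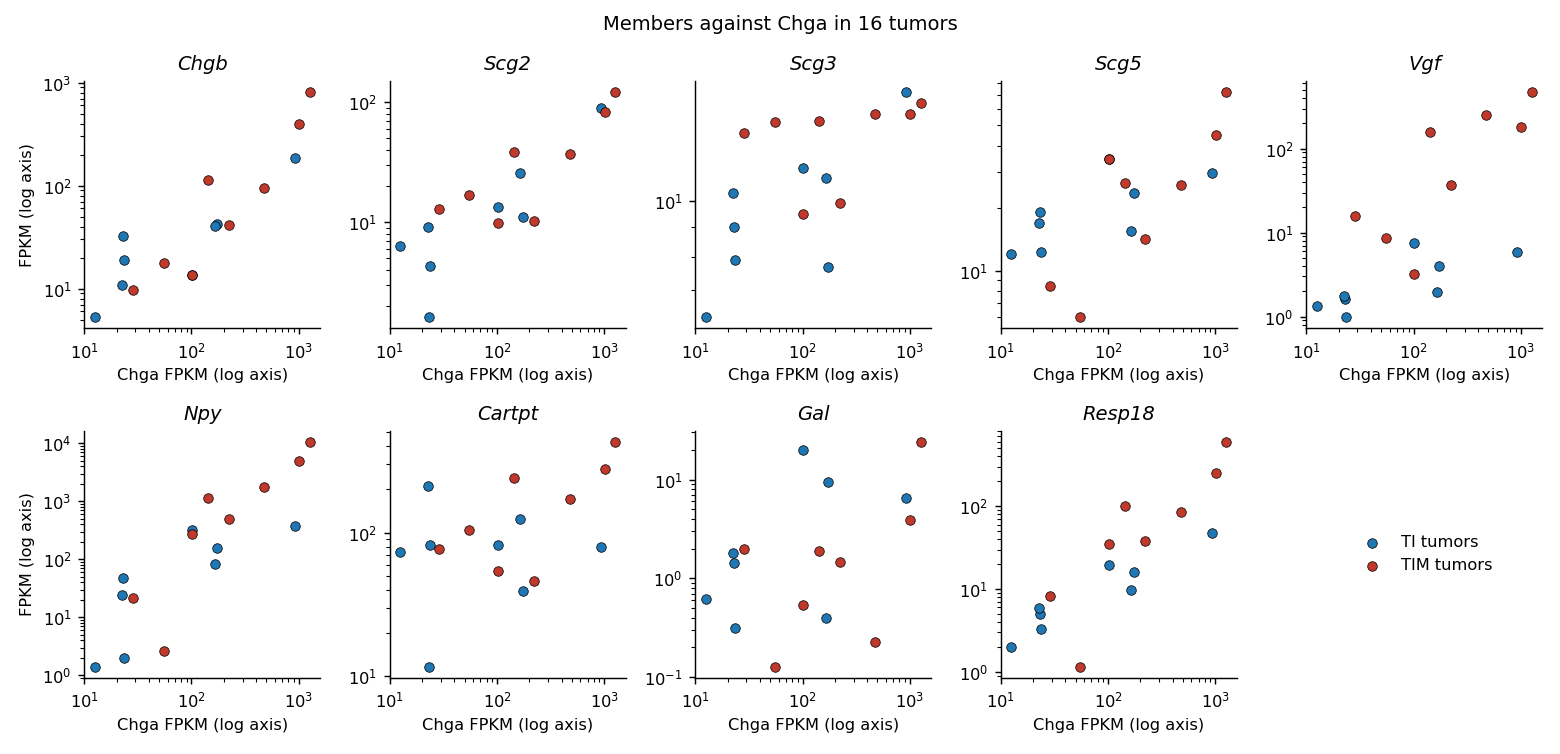
FPKM of 9 members against FPKM of Chga (log axes) in 8 TI and 8 TIM tumors, 1 point per tumor. Resp18, Npy and Chgb increase with Chga in both groups, while Cartpt in TI does not (r 0.09).

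Outside the members, the tested genes closest to Chga over all 16 tumors, with each group centered on its mean, were Foxf1 (r 0.93), Plpp5 (r 0.92) and Srxn1 (r 0.92) among 10063 genes. The mean of Foxf1 was 0.514 FPKM in TI and 0.731 FPKM in TIM, so it is near the limit of the filter. Closest to Npy were Gch1 (r 0.95), the first enzyme of tetrahydrobiopterin synthesis and thus of the cofactor of tyrosine hydroxylase, Tnfrsf12a (r 0.93) and Lrpap1 (r 0.93). Closest to Cartpt were Stat5a (r 0.82), Ccs (r 0.82) and Ptgis (r 0.82). Stat5a did not exceed 0.548 FPKM and Ptgis 0.625 FPKM in any of the 16 tumors, so both were low. These are the highest of many correlations and are given as a description.

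Genes that make and carry the vesicles were described from lists chosen for their function. Of 18 tested dense-core vesicle genes (20 listed), 13 were higher and 0 lower in TI vs AG (24.6% and 27.7% of all tested genes), 16 and 0 in TIM vs AG (22.5% and 28.5%), and 8 and 0 in AGM vs AG (14.6% and 14%). The median log2FC of this list was 1.41, 2.16 and 0.87. Cplx1, a complexin that clamps vesicle fusion, was at 0.471 FPKM in AG, 0.938 in AGM, 13.3 in TI and 16.7 in TIM on average (log2FC 3.21 ± 0.29 in TI and 3.51 ± 0.29 in TIM, limma FDR = 3.7e-09 and 7.99e-10). Slc18a2, the vesicular monoamine transporter VMAT2, averaged 0.593 FPKM in AG, 1.59 in AGM, 14.8 in TI and 13.2 in TIM (3.18 ± 0.53 in TI, limma FDR = 2.5e-05). Ptprn, the vesicle membrane protein IA-2, averaged 1.32 FPKM in AG, 25.2 in AGM, 10.8 in TI and 82.9 in TIM (4.16 ± 0.85 in TIM, limma FDR = 0.000269). Pcsk1n, the granin-like precursor proSAAS that inhibits the convertase PC1, was at 6.24 to 8.43 FPKM in AG and 31 to 55.8 FPKM in AGM, against 25.3 to 91.4 FPKM among TI and 32.8 to 271 FPKM among TIM tumors, and was higher in TI and TIM (2.53 ± 0.48 and 3.26 ± 0.48, limma FDR = 0.000128 and 6.01e-06).

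Of 11 processing genes, 2 were higher and 3 lower in TI vs AG, 3 and 6 in TIM vs AG, and 1 and 2 in AGM vs AG, set against the same shares of all genes. The counts in TI and AGM were near these shares. Pcsk2, the neuroendocrine convertase PC2, averaged 0.228 FPKM in AG, 0.47 in AGM, 1.75 in TI and 1.84 in TIM (log2FC 1.13 ± 0.29 in TI and 1.05 ± 0.29 in TIM, limma FDR = 0.00263 and 0.00459). Qpct, which forms the pyroglutamate end of some peptides, was higher in TI (0.91 ± 0.25, limma FDR = 0.00347), and Pam, which amidates the end of peptides such as NPY and galanin, in TIM (2.21 ± 0.53, limma FDR = 0.00122). Pcsk5 was at 3.07 to 3.83 FPKM in AG and 2.82 to 3.52 FPKM in AGM, but at 0.0127 to 0.147 FPKM among TI and 0.014 to 0.106 FPKM among TIM tumors, lower in both tumor groups (-2.11 ± 0.07 and -2.10 ± 0.07, limma FDR = 2e-17 and 1.96e-17). Furin, a convertase of most cell types, was lower too (-1.24 ± 0.23 in TI and -1.04 ± 0.23 in TIM, limma FDR = 8.46e-05 and 0.000532). Pcsk1, the other main neuroendocrine convertase, was at 0.22 to 0.353 FPKM in AG, 3.98 to 8.03 in AGM and at most 0.184 in any tumor.

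**Figure D5:**
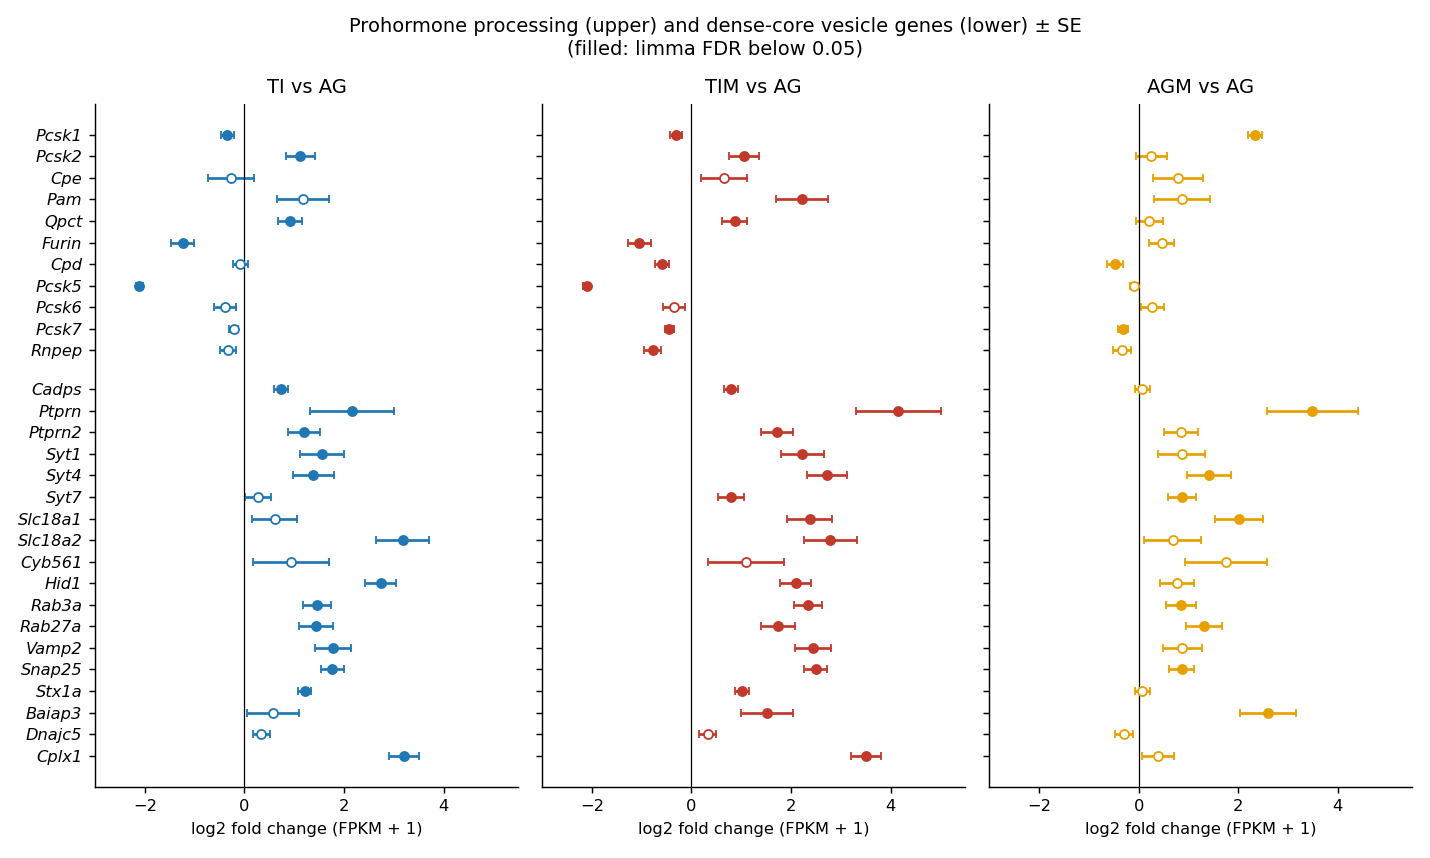
Log2 fold change of FPKM + 1 against AG (points) with its SE (bars) for 11 prohormone processing genes (upper block) and 18 dense-core vesicle genes (lower block) in TI, TIM and AGM, filled where the limma FDR was below 0.05. All 13, 16 and 8 filled vesicle genes lie right of 0, while filled processing genes lie on both sides.

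Markers of the sympatho-adrenal lineage itself were measured in the tumors as well. Of the 10 markers 5 were higher and 0 lower than in AG in either tumor group, with Dbh, Ddc and Hand2 called in both. Of all tested genes 24.6% were higher and 27.7% lower in TI vs AG, and 22.5% and 28.5% in TIM vs AG. Th and Dbh, enzymes of catecholamine synthesis, averaged 13.5 and 14 FPKM in AG, 211 and 88.5 in AGM, 103 and 93.5 in TI and 687 and 199.7 in TIM. Pnmt, at 192 FPKM or more in AGM, was at 28.8 FPKM or less in every TI tumor and between 0 and 204 FPKM in TIM. Slc6a2 and Gata3 were not called against AG in any of the 3 comparisons.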

How the data were processed

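Strand-specific RNA-seq of polyadenylated RNA from 24 samples (3 AG, 5 AGM, 8 TI and 8 TIM) was analyzed. The authors trimmed reads with cutadapt 2.8, aligned them to mm39 with HISAT2 2.1.0, counted genes with featureCounts 2.0.0, adjusted the counts for the sequencing run with ComBat-seq and normalized them by TMM in edgeR 3.40 per the labels and the methods of the study. The deposited table holds FPKM from these adjusted counts with the length of each gene. It also holds log2 fold changes, p-values and FDR that the authors computed for AGM, TI and TIM against AG, which were not used. Adjustment and scaling can change both the levels and the spread of a gene, and the adjusted counts are not the sequencing depth.

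FPKM multiplied by gene length were whole multiples of 1 step in 100% of values (tolerance 0.001), which gave the recovered counts. Depth is given as these counts, and statements on them cover counting error only. No pair of columns was identical (0 pairs). Column names gave the group but no sample number, so run, zygosity and tumor site of a column were unknown.

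limma 3.58.1 in R 4.3.3 (lmFit, eBayes with trend) was fitted to log2(FPKM + 1) of 10171 genes that reached 1 FPKM in 3 or more libraries, over all 24 libraries and without covariates, with Benjamini-Hochberg adjustment over these genes and a threshold of 0.05. Fold changes on this scale understate the change of low genes. Shares and correlations with Chga were tested by exact two-sided permutation (absolute difference of means, or Pearson's r and Spearman's rho) in Python 3.11.15 with scipy 1.17.1 and adjusted by Benjamini-Hochberg. The code was tested on simulated data. Alternatives were another pseudocount (0.1 FPKM), no or a stricter filter, the spread from the compared groups only, limma-voom on the recovered counts, other library scalings, shares without Npy and leaving out each library, and, chosen after seeing the data, values capped at 1000 FPKM and correlations with the pseudocount of 0.1. The members and lists were chosen with earlier results of these data known. Named beside the members were, per pathway list, up to 2 genes with the largest change in each direction among those called. This rule was applied in TI vs AG and in TIM vs AG. Also named were the sympatho-adrenal markers and the 3 genes most correlated with Chga, Npy and Cartpt. Pcsk1, Sst and the genes named from other lists were chosen after their values were seen. Some of the sympatho-adrenal markers are not reported here. Gene positions are from GENCODE M39 (GRCm39) and promoters from RefSeq (GRCm38.p6).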

Additional observations from a re-analysis of the deposited data

Results flagged for a closer look

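The difference between tumor and gland with the MYCN transgene (TIM - AGM) against that without it (TI - AG) passed the test for Scg5 and Gal. It was -2.18 on the log2(FPKM + 1) scale for Scg5 (limma FDR = 0.0316) and -4.77 for Gal (limma FDR = 0.00313). In Scg5 the mean was 2.21 FPKM in AG, 16.3 in AGM, 20.4 in TI and 29 in TIM, and in Gal 3.18, 93.3, 5.06 and 4.26 FPKM. AG and AGM were sequenced in different runs, and AGM, TI and TIM mice differed in age. Most TI samples were IGF2BP1 +/+ while TIM carried IGF2BP1 and MYCN at the same locus. Run, age, IGF2BP1 dose and MYCN thus cannot be told apart here. Of 30 groups of members with 4 to 10 libraries that were screened for a single outlying library, 0 held one, where chance gives about 1 in 20.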

How the results depend on the processing

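No paired analysis was possible because the columns carry no replicate numbers. Of 529 values of single members under other settings, 497 kept their direction and their side of the threshold, and of 960 values without a library, 865 did. The count of called members was 5 instead of 3 in TI vs AG when only these groups set the spread (Vgf and Resp18 added). In TIM vs TI it was 1 instead of 2 with a pseudocount of 0.1 FPKM, with no filter, with a filter of 1 FPKM in every library, with the spread of these groups only and with limma-voom. That filter leaves 7 members to test (without Vgf, Cartpt and Gal), and gave 4 instead of 7 in TIM vs AGM and 0 instead of 2 for the difference of differences, where limma-voom gave 1. Without a library, the counts ranged from 3 to 6 in AGM vs AG, from 1 to 6 in TIM vs TI and from 1 to 2 for the difference of differences. Called shares ranged from 0 to 5 in TI vs AG, from 0 to 7 in TIM vs AG, from 1 to 4 in TIM vs TI and were 0 in AGM vs AG, where the smallest exact p without a library is 0.0286 (35 splits) or 0.0476 (21 splits). Without Npy, 2 shares instead of 4 were called in TI vs AG.

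Members without a call changed sign in some settings. With a library size that leaves out genes above 1000 FPKM, Chgb in TIM vs AG was -0.077 and Npy in TIM vs AGM 0.063; this scaling moved the median of all genes by -0.27 in AGM vs AG, 0.27 in TI vs AGM and 0.21 in TIM vs AGM. With median-of-ratios scaling, Scg2 in TIM vs AG was 0.051. Vgf in the difference of differences was -0.68 with a pseudocount of 0.1 and -1.38 with limma-voom. Without Npy in the sum, the share difference was 2.19 percentage points for Chga and 0.279 for Scg2 in TIM vs TI, and 3.29 for Resp18 in TIM vs AGM. Leaving out single libraries turned Chga in TI vs AG to -0.13 (AG b), -0.055 (TI d), -0.51 (TI f), -0.17 (TI g) and -0.15 (TI h), and Gal there to 0.034 (TI e) and 0.022 (TI h). In TIM vs AG it turned Chgb to -0.082 (AG b), -0.037 (TIM a), -0.29 (TIM b) and -0.44 (TIM e), and Scg2 to 0.016 (AG a), 0.056 (AG c), 0.13 (TIM c), 0.072 (TIM f), 0.17 (TIM g) and 0.18 (TIM h). Scg5 in TIM vs TI became -0.028 (TIM e), Gal in TIM vs TI 0.035 (TI d) and Npy in TIM vs AGM 0.35 (TIM c) and 0.72 (TIM f). The cause was not tested.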

Other observations

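Of 28 other neuropeptide genes listed, 11 passed the filter, and 3 were higher in TI vs AG, 5 in TIM vs AG and 0 lower in either (limma). Of all tested genes 24.6% were higher and 27.7% lower in TI vs AG, and 22.5% and 28.5% in TIM vs AG. The count of higher genes in TI was near that share. Adcyap1, the precursor of PACAP, did not exceed 0.0126 FPKM in AG (listed at 0 in 2 of 3 libraries) and ranged from 0.141 to 20.8 FPKM among TI tumors and from 0.285 to 6.61 FPKM among TIM tumors. Its receptor Adcyap1r1 was at 1.19 to 1.77 FPKM in AG, and the tumors ranged from 3.89 to 18.3 FPKM (TI) and from 4.18 to 31.4 FPKM (TIM). Both genes were called higher in either tumor group. Pomc averaged 0.319 FPKM in AG, 3.48 FPKM in TI and 0.353 FPKM in TIM, and was higher in TI than in AG (log2FC 1.63 ± 0.29, limma FDR = 5.69e-05). Trh was listed at 0 in every AG and AGM library and in 5 of 8 TI and 4 of 8 TIM tumors, and reached 1595 FPKM in TIM e. Sst had the highest TIM mean of this list (641 FPKM) and reached 3620 FPKM in TIM e. It was listed at 0 in all 3 AG, 4 of 5 AGM, 1 of 8 TI and 4 of 8 TIM libraries. Ghrh ranged from 0.0166 to 81.8 FPKM in TIM and from 0.0819 to 22.3 FPKM in TI. Penk, the enkephalin precursor of chromaffin cells, was at 0.14 to 0.219 FPKM in AG and 7.37 to 11.1 FPKM in AGM.

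Of 29 listed peptide receptors, 9 passed the filter. In TI vs AG 2 were higher, in TIM vs AG 3, in AGM vs AG 5, and 0 were lower in any of these. The shares of all tested genes called higher were 24.6%, 22.5% and 14.6%, and those called lower 27.7%, 28.5% and 14%. The count of higher receptors in TI was near its share. Oprl1, the nociceptin receptor, averaged 0.0853 FPKM in AG, 1.41 FPKM in TI and 2.56 FPKM in TIM. Cckar, Ntsr1 and Npy5r were listed at 1 recovered count in each AG library, and at 15935 to 33853, 0 to 574 and 0 to 227 FPKM in AGM.

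Of the remaining marker lists, the counts called higher and lower in TI vs AG were 0 and 2 of 5 tested Schwann and sustentacular markers, 0 and 2 of 4 endothelial, 0 and 1 of 4 macrophage, 0 and 4 of 4 adipocyte, 1 and 2 of 5 stroma and capsule and 0 and 1 of 5 pancreatic acinar markers. In TIM vs AG they were 0 and 1, 0 and 4, 0 and 2, 0 and 4, 1 and 2, and 1 and 0 in this order. Of all tested genes 24.6% were higher and 27.7% lower in TI vs AG, and 22.5% and 28.5% in TIM vs AG. None of 4 kidney tubule and 6 measured islet markers passed the filter, and of 3 liver markers 0 were called in either comparison.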
